A study of Mus musculus with 21 samples.

Results

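The 3 libraries described here are the PBS-treated baseline of a study in primary mouse hepatocytes, the parenchymal cells of the liver, taken from wild-type (WT) animals and kept in culture. They were chosen by their label, PBS, the buffer given without an agent, and they are 3 of the 21 libraries of the study. The other 18 libraries received RNAi agents directed against Ttr and are not set against the PBS libraries here. RNA was taken on Day 1 and read with QuantSeq, a method that primes on poly(A) with oligo(dT) and counts reads near the 3′ ends of transcripts. The labels do not say whether PBS 1, 2 and 3 came from separate animals or separate dishes, nor how the cells were isolated or which medium they had, so the spread between them may be technical.

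Hepatocytes make most plasma proteins, including albumin, lipoproteins, clotting factors, complement and carriers of iron, haem, vitamins and hormones. They also hold the urea cycle, gluconeogenesis, bile acid synthesis and the cytochrome P450 enzymes that oxidise drugs, and they divide this work between the periportal and the pericentral end of the liver lobule. Hepatocytes that are isolated and plated are known to spread, to build actin, tubulin and keratin networks, to respond to oxidative and wounding signals, and to lose part of their adult metabolic programme.

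The libraries held 14324315, 19109736 and 26340870 reads over the 9657 genes of the tables, within the range of 14158740 to 37410773 reads over all 21 libraries. Levels are given as CPM, where the reads of a library add up to 1000000, in the order PBS 1, 2 and 3 or as the mean ± SD of the 3 libraries (n = 3). CPM was not divided by transcript length, since the method reads about 1 place per transcript, and levels of different genes are compared on that scale. Levels ran from a mean of 0.694 CPM to 23033 CPM with a median of 25.1 CPM. A mean of at least 10 CPM was reached by 7611 genes, at least 100 CPM by 1552 genes and at least 1000 CPM by 161 genes. The spread between libraries was wider for genes at low levels, with a median coefficient of variation of 49.7% below 5 CPM, 25.9% from 10 to 100 CPM and 13.1% from 1000 CPM upwards. Across genes the rank correlation was 0.928 for PBS 1 and PBS 2, 0.884 for PBS 1 and PBS 3, and 0.906 for PBS 2 and PBS 3, over 9657 genes that are not independent of each other. Counts of the closest pair, PBS 1 and PBS 2, differed by a chi-square of 40.1 per degree of freedom, which is set against counting error only and takes untagged reads as independent. No pair was close enough to be a library deposited again, and all 3 were kept as the labels give them.

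The transcriptome was led by a cytoskeletal gene, mitochondrial RNA and plasma proteins. The 10 most abundant genes held 9.59% ± 0.196 of all CPM, the top 50 held 23.1% ± 0.503 and the top 100 held 32.3% ± 1.22. Of the top 50 genes, 14 were on the list of secreted liver proteins, 8 were mitochondrially encoded, 7 were cytoskeleton or adhesion genes, 3 were ribosomal protein genes and 4 were pseudogenes or predicted genes. Actb, the gene of beta-actin (ENSMUSG00000029580, chromosome 5, 142903115 to 142906754, minus strand, GRCm38), had the highest mean, with 22602, 24949 and 21548 CPM. The large mitochondrial ribosomal RNA, mt-Rnr2, followed at 25585, 22289 and 6705 CPM. The libraries were far apart for this RNA, and PBS 3 was the low library. Hpx (ENSMUSG00000030895, chromosome 7, 105591613 to 105600137, minus strand) encodes hemopexin, which binds free haem in plasma, and ranked 3rd with 8469.6, 9209.6 and 18984 CPM. For Hpx the order was reversed, and PBS 3 was the high library.

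Albumin was not the leading plasma protein mRNA in these cells. Alb (ENSMUSG00000029368, chromosome 5, 90460897 to 90476602, plus strand) had 5809, 5353 and 4384 CPM and ranked 9th. Serpina1b, Serpina1c and Serpina1a encode alpha-1-antitrypsins, inhibitors of neutrophil elastase, and had means of 7333 ± 1676, 7131 ± 1727 and 6676 ± 1769.7 CPM. PBS 3 was the highest library for each of these 3 genes. Clu, which encodes the secreted chaperone clusterin, had 5667 ± 561 CPM, and Hp, which encodes the haemoglobin-binding haptoglobin, had 5123 ± 332 CPM. Trf encodes transferrin, the plasma carrier of iron, and was steady at 4928, 5101 and 4843 CPM. Sprr1a encodes a small proline-rich protein best known from stressed and cornifying epithelia, and it ranked 13th with 4365, 5116 and 5077 CPM, close to albumin.

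**Figure D1:**
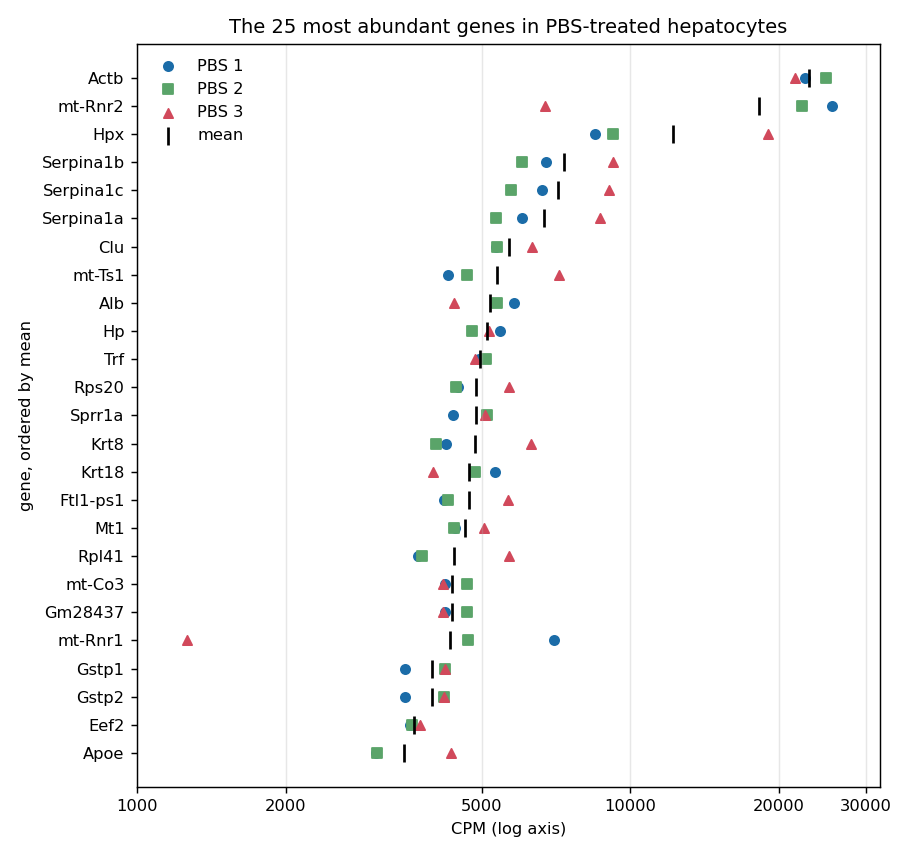
CPM on a log axis of the 25 genes with the highest mean over the 3 PBS libraries, with 1 symbol per library and a bar at the mean. Most genes show 3 close symbols, while mt-Rnr2 and mt-Rnr1 are low in PBS 3 (6705 and 1264 CPM) and Hpx is high in PBS 3 (18984 CPM).

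Several of these levels are shared between near-identical genes, and the counting could split or double them. Gm28437, a nuclear copy of mitochondrial sequence on chromosome 1, had 0.999 times the level of mt-Co3, the mitochondrial gene of cytochrome c oxidase subunit 3, in each library. Gm10925 was as steady, at 0.987 to 0.989 times mt-Atp6. Other copies there varied, with Gm29216 at 2.89, 2.87 and 5.38 times mt-Co2 and Gm28439 at 1.02, 0.731 and 0.356 times mt-Cytb. Gm28661 had 0.234, 0.361 and 0.236 times mt-Nd4. The part of such copies in the PBS 3 values of mitochondrial mRNAs was not tested. Gstp2 had 0.995 to 0.999 times the level of Gstp1, a glutathione transferase, across the libraries. Ftl1-ps1, which carries a pseudogene's name and is annotated as protein coding, had 1.34 to 1.44 times the level of Ftl1, the ferritin light chain gene. The 3 alpha-1-antitrypsin genes form such a family too, with Serpina1a at 0.884 to 0.941 times Serpina1b. Genes annotated as pseudogenes, without Ftl1-ps1, numbered 744 and held 12.8% ± 0.198 of all CPM. mt-Ts1, a mitochondrial tRNA gene with 4263, 4661 and 7177 CPM, lies on the strand opposite to mt-Co1 and overlaps its end (positions 6870 to 6938 against 5328 to 6872 of the mitochondrial genome). The annotated overlap is a few bases only. Without a stated strand setting, the reads counted at mt-Ts1 cannot be assigned to a strand.

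The listed genes of secreted liver proteins held 10.96% ± 1.18 of all CPM, or 10.4%, 10.2% and 12.3% in PBS 1, 2 and 3. Clu was not on this list, so neither this share nor the count among the top 50 includes it. Of 131 listed genes 123 were measured, 81 of them at 100 CPM or more and 25 at 1000 CPM or more. The lowest was Inhbe, an activin subunit, at 4.79 ± 1.68 CPM. Carriers of haem, iron, vitamins and hormones made up the largest role by level, with 3.86% ± 0.373 over 14 genes. Hpx, Alb, Hp and Trf belong to this role. Ttr encodes transthyretin, the carrier of thyroxine and retinol-binding protein and the target of the agents used elsewhere in the study. It had 2272, 2168 and 2336 CPM in these PBS-treated cells, or 2258 ± 84.7 CPM, and ranked 50th. Gc encodes the vitamin D binding protein, and its values of 1165, 1413 and 377 CPM placed PBS 3 well below the other libraries.

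Lipid transport genes held 1.23% ± 0.230 of all CPM, and all 17 listed genes were measured. Apoe, whose product clears remnant lipoproteins, led with 3053, 3064 and 4325 CPM. Apoa1, the main protein of high-density lipoprotein, had 2108, 1901 and 2984 CPM, Apoc1 had 1733 ± 278 CPM and Apoa2 had 1546 ± 396 CPM. All 4 had their highest value in PBS 3. Apob, the backbone protein of very-low-density lipoprotein, was far lower and went the other way, with 283, 269.9 and 102 CPM.

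Inhibitors of proteases held 3.01% ± 0.615 of all CPM, most of it in the alpha-1-antitrypsin genes. Ahsg, which encodes fetuin-A, an inhibitor of calcification counted in this role, had 3209, 2955 and 3619 CPM. Coagulation and fibrinolysis genes held 0.352% ± 0.0133, and 17 of 19 were measured. Fgb, the fibrinogen beta chain, had 1448, 1463 and 1055 CPM. Prothrombin (F2) and factor XII (F12) had 299 ± 28.9 and 258 ± 34.95 CPM, while F11, which encodes factor XI, was the lowest of the role at 7.56 ± 3.95 CPM. Complement genes held 0.252% ± 0.0109, and C3, the central component, accounted for 1279, 1365 and 1325 CPM. Acute phase genes held 0.585% ± 0.0354. Lcn2 encodes lipocalin 2, an iron-siderophore binder induced in inflamed liver, and had 3253, 3138 and 3708 CPM. Saa1 and Saa2 encode serum amyloid A proteins and had 728 ± 66.9 and 611 ± 48.1 CPM. Major urinary proteins are pheromone carriers of mice, and 14 listed genes held 1.56% ± 0.0783. Mup1 had 2816, 2987 and 2912 CPM and Mup10 2251, 2215 and 2193 CPM, values that lay close together in all libraries although reads of this family can be shared among its members. Among hormones and their binders, Igfbp1 and Igf1, an insulin-like growth factor binder and the growth factor itself, had 386 ± 38.4 and 206 ± 27.4 CPM.

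The hepatocyte label was checked against marker genes. All 10 hepatocyte markers were measured (Serpina1a, Alb, Trf, Ahsg, Apoa1, Apoc3, Fah, Asgr1, Hnf4a and Cps1), and together they held 2.37% ± 0.217 of all CPM. Markers of other liver cells were few and low. For Kupffer cells and other macrophages 3 of 15 markers were measured, with a summed level of 95.1 to 127 CPM, and the highest, the lysosomal gene Cd68, had 81.6 ± 12.1 CPM. Markers of sinusoidal endothelium (4 of 14 measured, led by Egfl7 at 80.2 ± 15.2 CPM) summed to 106 to 139.8 CPM. Markers of stellate cells and fibroblasts (4 of 16, led by Ecm1 at 67.5 ± 13.3 CPM) summed to 82.4 to 113 CPM, and markers of cholangiocytes (3 of 11, among them Sox9 and Krt19) to 37.1 to 56.0 CPM. Of 8 erythroid markers Alas2 was measured, at 7.34 ± 3.74 CPM, and 0 of 12 lymphocyte, 0 of 8 neutrophil and 0 of 6 mesothelial markers were among the genes analysed here. Defining genes such as Adgre1 and Clec4f of Kupffer cells, Pecam1 and Lyve1 of endothelium, Col1a1 and Lrat of stellate cells, and Epcam and Krt7 of cholangiocytes were not among the genes analysed here. Several measured markers, among them Cd68 and Sox9, can also be expressed by hepatocytes.

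Transcription factors that define hepatocytes were present at modest levels. Of 27 listed factors 23 were measured, with a median of 34.8 CPM. Zbtb20, a repressor of Afp in adult liver, led with 251, 223 and 148 CPM, followed by the forkhead factor Foxa3 at 95.2, 114 and 139 CPM. Onecut2 and Cebpb had 94.01 ± 20.6 and 88.2 ± 17.1 CPM. Hnf4a, the nuclear receptor at the head of the hepatocyte programme, had 54.8, 41.97 and 32.04 CPM. Cebpa, the partner of Cebpb in adult liver, had 21.1, 35.5 and 30.6 CPM, lower than Cebpb in each library. The lowest was Foxa1 at 5.33 ± 3.42 CPM. Among 30 receptors and transporters of the hepatocyte surface 21 were measured. Abcc2, the canalicular exporter of conjugated bilirubin, and Egfr, the epidermal growth factor receptor, had 114 ± 31.4 and 111 ± 4.78 CPM. Asgr1, the asialoglycoprotein receptor subunit through which galactosamine-linked drugs enter hepatocytes, had 70.6, 78.6 and 59.3 CPM, and its partner Asgr2 had 14.5, 13.1 and 13.2 CPM.

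**Figure D2:**
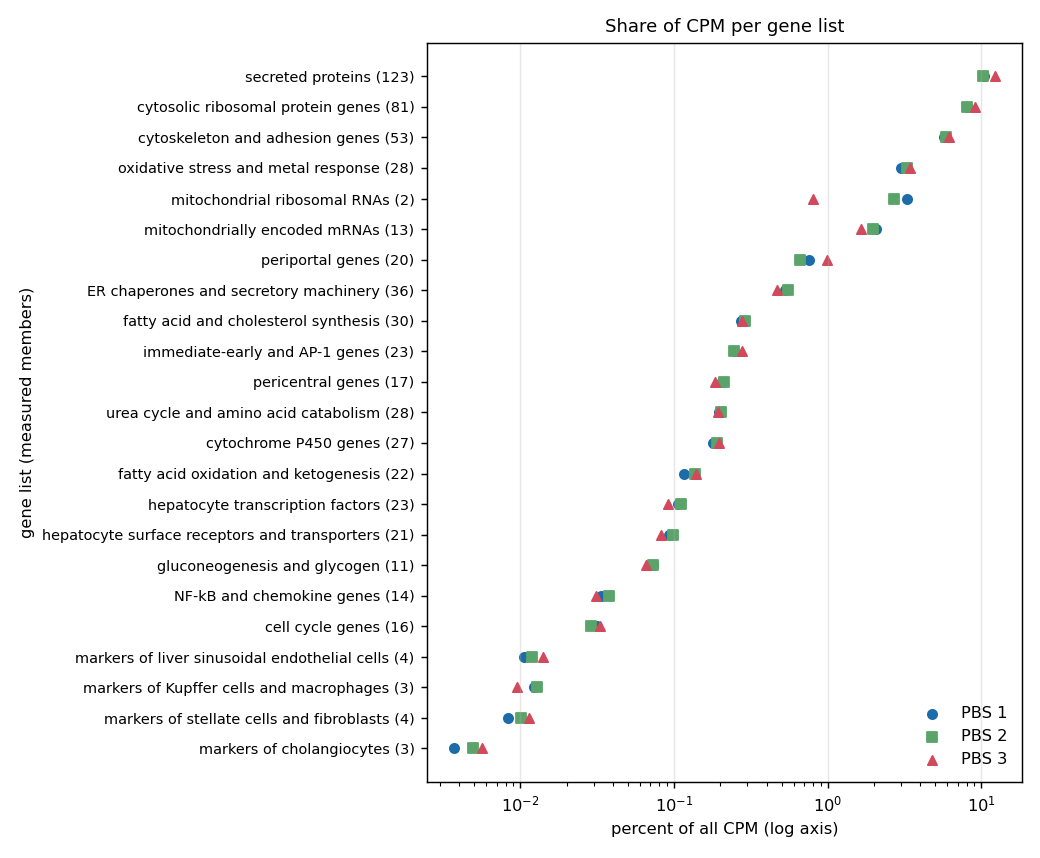
Share of all CPM, on a log axis, held by each gene list in each PBS library, with the number of measured members in brackets. Secreted proteins lead with 10.2% to 12.3%, hepatocyte transcription factors lie between 0.0914% and 0.110%, and markers of other liver cells lie at or below 0.0140%. The mitochondrial ribosomal RNAs are the list whose libraries lie farthest apart, at 0.797% in PBS 3 against 2.70% and 3.26%.

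Genes of both ends of the liver lobule were detected. Bulk RNA cannot tell fewer cells of a zone from less RNA per cell. Pericentral genes held 0.201% ± 0.0145 of all CPM, with 17 of 31 listed genes measured. Most of it came from a pair of genes. Aldh1a1, a retinaldehyde dehydrogenase, had 867, 899 and 787 CPM. Gstm3, a glutathione transferase, had 624, 559.8 and 510.1 CPM. Cyp3a11, the main drug-oxidising P450 of mouse liver, had 183, 209.6 and 169 CPM. Glul encodes glutamine synthetase, a marker of the cells next to the central vein, and had 26.2, 30.2 and 28.1 CPM. A pair of well-known perivenous P450 genes was at low levels, with Cyp1a2 at 50.3, 76.9 and 58.2 CPM and Cyp2e1 at 8.73, 14.1 and 3.61 CPM. Rhbg, an ammonium transporter, was the lowest at 3.46 ± 0.502 CPM.

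Periportal genes held 0.805% ± 0.169 of all CPM, with 20 of 28 listed genes measured. Most of this was Serpina1c, and without it the share was 0.0915% ± 0.00671. The pericentral share without its own leading gene, Aldh1a1, was 0.116% ± 0.00870, so the balance between the lists depended on single members. Ass1, the argininosuccinate synthase of the urea cycle, had 194, 151 and 188 CPM. Cdh1, the epithelial cadherin, had 132, 109 and 64.99 CPM and Cyp2f2, a periportal P450, had 53.3, 77.9 and 56.8 CPM. Other urea cycle enzymes of the list were below Ass1 in each library. Cps1, carbamoyl phosphate synthetase, had 17.03, 11.6 and 9.72 CPM, Arg1, arginase, had 25.2, 18.7 and 11.2 CPM, and Otc, ornithine transcarbamylase, had 9.98, 3.30 and 5.54 CPM.

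Metabolic enzymes of adult liver were present at low to middle levels. Of 57 listed cytochrome P450 genes 27 were measured, together 0.189% ± 0.00892 of all CPM. Cyp2d10 led with 227, 215 and 346 CPM, followed by Cyp2b10, the classical target of the xenobiotic receptor CAR, with 234, 241 and 283 CPM, and Cyp2c70, which makes muricholic acids in mice, with 176, 164 and 188 CPM. The urea cycle and amino acid list had 28 of 31 genes measured and held 0.197% ± 0.00530. Its leading genes were mitochondrial enzymes of glutamate, Glud1 and Got2, with 538 ± 122 and 478 ± 30.01 CPM, while the tyrosine breakdown enzymes Hpd and Hgd had 17.2 ± 3.47 and 4.34 ± 3.62 CPM. Gluconeogenesis and glycogen genes held 0.0706% ± 0.00402, led by Pygl, liver glycogen phosphorylase, at 242, 208 and 234 CPM.

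Fatty acid oxidation and ketogenesis genes (22 of 27 measured) held 0.130% ± 0.0119, and synthesis of fatty acids and cholesterol (30 of 30 measured) held 0.278% ± 0.00941. The first list was led by Acads, the short-chain acyl-CoA dehydrogenase, at 216, 244 and 297 CPM. Of the second, Hmgcs1, an enzyme early in cholesterol synthesis, had 339, 341 and 207 CPM, and Scd1, the stearoyl-CoA desaturase, had 290.2, 289 and 295 CPM. Fabp1, the liver fatty acid binding protein, is usually counted among the abundant liver mRNAs and here had 19.3, 22.8 and 14.2 CPM.

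Pairs of related genes were set side by side, most of them with the form typical of adult liver first. Of the 8 pairs reported here, which include a pair of tubulins without a liver form and a pair of enzymes of opposite reactions, 6 had the higher mean for the second gene and 2 for the first. Pyruvate kinase was 92.5 ± 23.2 CPM for Pklr, the liver gene, and 413 ± 131 CPM for Pkm, the gene of proliferating and most other cells, a ratio of 4.47 for Pkm. Mat1a, the adult methionine adenosyltransferase, had 21.1 ± 4.56 CPM against 202 ± 23.1 CPM for Mat2a, which was 9.60 times higher. In the pyruvate kinase and the methionine adenosyltransferase pair every library of the second gene lay above every library of the first. Slc2a2 and Slc2a1, the liver and the general glucose transporter, had 18.3 ± 5.17 and 50.7 ± 2.54 CPM. In the albumin pair the first gene was higher, and Afp, the fetal alpha-fetoprotein, had 5.66 ± 2.85 CPM against 5182 ± 728 CPM for Alb. Fresh liver was not analysed here, so these are levels in culture and not changes.

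**Figure D3:**
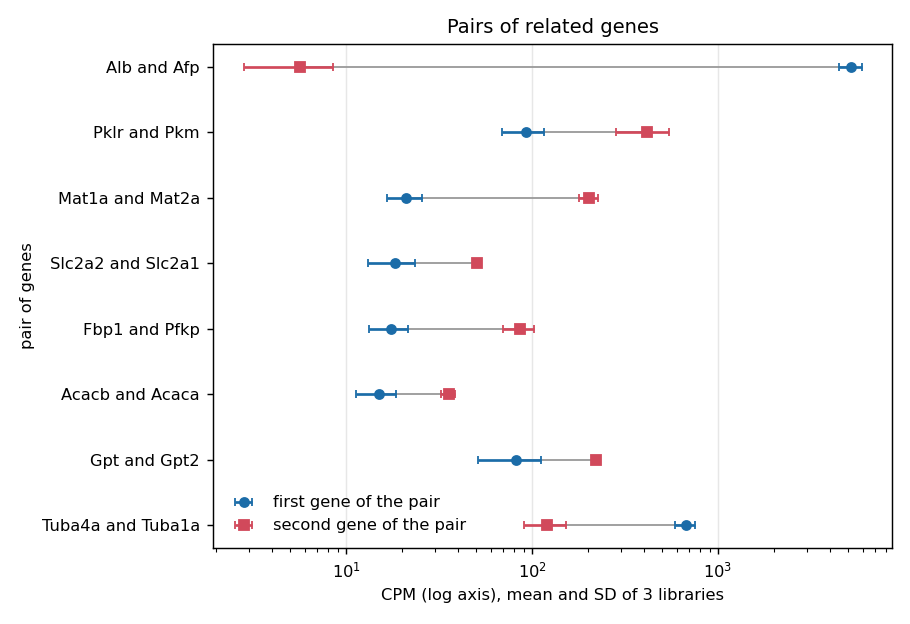
Mean CPM on a log axis with the SD of the 3 PBS libraries for pairs of genes, in most of which the gene typical of adult liver is named first. Fbp1 and Pfkp act on opposite reactions of the same step, and the tubulins are shown as a pair without a liver form. Alb lies far above Afp, whereas Pkm and Mat2a lie 4.47 and 9.60 times above Pklr and Mat1a.

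Genes known to be induced when hepatocytes are plated were among the highest in these libraries. The cytoskeleton and adhesion list held 5.90% ± 0.231 of all CPM, with 53 of 57 genes measured and 11 of them at 1000 CPM or more. After Actb came the keratins of simple epithelia, Krt8 with 4221, 4039 and 6278 CPM and Krt18 with 5326, 4829.6 and 3983 CPM. These partners form filaments together, and they differed in which library was high, with Krt8 highest and Krt18 lowest in PBS 3. Anxa2, a membrane-binding annexin, had 2689, 2629.6 and 3065 CPM, Tuba1c, an alpha-tubulin, had 2787 ± 637 CPM, and Vim, the intermediate filament gene of mesenchymal and dedifferentiating cells, had 633 ± 209 CPM. Smooth muscle genes of the list were near its lower end, with Acta2 at 6.07 ± 4.66 CPM and Tagln at 2.76 ± 2.07 CPM. Ankrd1, a target of the mechanosensitive YAP pathway, had 131, 191 and 55.2 CPM. Ccn2, another such target, had 29.5, 38.5 and 10.9 CPM, and both were lowest in PBS 3.

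Oxidative stress and metal response genes held 3.23% ± 0.225 of all CPM (28 of 29 measured). The metallothionein Mt1, which binds zinc and copper, had 4416, 4391 and 5039 CPM and its neighbour Mt2 2953, 2774 and 2839.8 CPM. Fth1, the ferritin heavy chain, and Gpx1, a glutathione peroxidase, had 2843 ± 315 and 2423 ± 570.2 CPM. Srxn1, Gclc and Hmox1, inducible targets of the stress factor Nrf2, had 210.4 ± 26.5, 221 ± 68.5 and 144 ± 16.7 CPM. Immediate-early and AP-1 genes held 0.255% ± 0.0181, with 23 of 26 measured. Jund, an AP-1 subunit that is expressed without stimulation, made up much of this with 897, 838 and 1483 CPM, and the cell cycle inhibitor Cdkn1a followed with 292, 351 and 260.2 CPM. The induced members Jun, Egr1 and Atf3 had 51.7 ± 19.2, 29.6 ± 10.3 and 13.5 ± 4.15 CPM.

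Genes of the endoplasmic reticulum, where secreted proteins fold, held 0.515% ± 0.0420, and all 36 were measured. Hspa5, the chaperone BiP, led with 868, 1018 and 585 CPM. The stress factors Atf4 and Ddit3 had 416 ± 35.99 and 199 ± 23.2 CPM. NF-kB and chemokine genes held 0.0338% ± 0.00334 with 14 of 25 measured, led by the inhibitor Nfkbia at 78.2, 83.8 and 49.6 CPM, and the monocyte chemokine Ccl2 had 65.8, 71.7 and 56.3 CPM. Cell cycle genes held 0.0311% ± 0.00222 with 16 of 24 measured. Cdk4, a kinase of early G1 phase, had 78.1 ± 4.01 CPM, Ccnd1, its cyclin, had 31.5 ± 2.23 CPM, and the proliferation markers Mki67 and Top2a had 10.9 ± 2.65 and 13.2 ± 4.13 CPM.

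Ribosomal protein genes held 8.40% ± 0.575 of all CPM over 81 genes, led by Rps20 with 4470.2, 4423 and 5665 CPM and Rpl41 with 3705, 3780.2 and 5667 CPM. The 13 mitochondrially encoded mRNAs held 2.06%, 1.96% and 1.64% in PBS 1, 2 and 3. The mitochondrial ribosomal RNAs held 3.26%, 2.70% and 0.797%, with PBS 3 far below the others. Of the nuclear-retained and other long noncoding RNAs, Malat1 was the highest, with 1030.2, 663 and 238 CPM, and Gas5 had 185, 184 and 163 CPM.

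PBS 3 stood apart from both other libraries at more genes than PBS 1 or PBS 2 did, mainly on the lower side. A gene was counted as apart where its CPM + 1 was at least 2-fold below, or at least 2-fold above, both other libraries. PBS 3 was singled out with its values known, so sizes only are given and no test. PBS 3 was below both others for 803 genes, 8.32% of all genes, and above both for 106 genes, 1.1%. The same rule called 276 genes (2.86%) below and 191 genes (1.98%) above for PBS 1, and 106 genes (1.1%) below and 179 genes (1.85%) above for PBS 2. PBS 3 was also the deepest of the 3 libraries. The median difference of all genes, PBS 3 less the mean of the other libraries, was -0.14 (log2) in deposited CPM and -0.01 after TMM scaling, a rescaling that sets the bulk of genes level. With TMM scaling the counts were 640 below and 173 above, so that 78.7% of the calls were on the lower side against 88.3% without it, and with DESeq2 size factors they were 612 and 191, with 76.2% on the lower side. Just inside the threshold lay Klf6, at 1.01 (log2) below the nearer library, and just outside it lay Gnas, at 0.985.

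Of the 161 genes at 1000 CPM or more, 3 were below in PBS 3 (mt-Rnr2, mt-Rnr1 and Hsp90aa1) and 1 was above (Hpx). mt-Rnr1, the small subunit RNA, had 6986, 4675 and 1264 CPM. Its difference from the mean of PBS 1 and PBS 2 was -2.18 (log2), and that of mt-Rnr2 was -1.83. Of the 13 mitochondrial mRNAs 12 were lower in PBS 3 than the mean of PBS 1 and PBS 2 on the log2 scale. The same held for 5727 of all 9657 genes. The list median of the mitochondrial mRNAs was -0.26 (log2), beside -0.14 for all genes. Only mt-Nd5, a complex I subunit, was apart, with 1253, 857 and 409 CPM. The 1 mRNA that was not lower was mt-Co1, with 3066, 3184 and 3164 CPM. Transcripts of the same organelle therefore differed in how far PBS 3 lay from the other libraries. mt-Te, a mitochondrial tRNA gene, was apart on the other side with 569, 673 and 1593 CPM. When both ribosomal RNAs were left out of the totals, an alternative chosen after seeing these values, 846 genes were below and 100 above.

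Secreted proteins as a list did not share a direction in PBS 3. Of 123 measured genes 6 were below and 2 above both other libraries, beside 8.32% and 1.1% of all genes, and the list median was 0.15 (log2) above that of all genes. Those below were Gc, Apob, Fst, Mup11, Mup17 and Mup21, and those above were Hpx and Apoa5, an activator of lipoprotein lipase with 17.03, 12.04 and 41.4 CPM. Mup17 had 243, 224 and 32.8 CPM and Mup11 143, 147 and 21.9 CPM, in contrast to the steady values of Mup1. Over the whole family 8 of 27 Mup genes and pseudogenes were below, while the family sum was 2.41%, 2.57% and 2.43% of CPM, so the family sum differed less between libraries than these members did.

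Chaperones of the endoplasmic reticulum were below both others for 4 of 36 genes, Pdia3, Hsp90b1, Pdia4 and Hyou1, beside 8.32% of all genes. Pdia3, a disulphide isomerase for glycoproteins, had 156, 157 and 50.4 CPM, and Hsp90b1, the chaperone GRP94, had 154, 127 and 46.9 CPM. Their cytosolic relative Hsp90aa1 had 2441, 2063 and 854 CPM. Of the 53 cytoskeleton genes Ankrd1, Ccn2 and Cnn2 were below, of 23 immediate-early genes Klf6, Zfp36l1 and Junb, and of 28 oxidative stress genes Txnrd1 (252, 295 and 123 CPM) and Gsta2 (169.6, 168 and 52.5 CPM). Among receptors and transporters, Met, the receptor of hepatocyte growth factor, had 49.4, 44.4 and 9.83 CPM and Abcb4, the phospholipid exporter of bile, had 40.6, 32.2 and 15.3 CPM. Krt19, a keratin of cholangiocytes, was above in PBS 3 with 9.84, 9.68 and 25.6 CPM, and the summed cholangiocyte markers were 37.1, 49.4 and 56.0 CPM. The part of such cells in the difference was not tested. None of the 23 transcription factors and none of the 81 ribosomal protein genes was apart. The ribosomal protein median was 0.18 (log2) above that of all genes.

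Single genes showed wider gaps. They were picked at a mean of at least 10 CPM over the 3 libraries, with predicted genes and pseudogenes left out. Cyp2b9, a P450 of the same subfamily as Cyp2b10, had 106, 70.1 and 4.52 CPM, a difference of -3.98 on the log2 scale, whereas Cyp2b10 was highest in PBS 3. Snora81, a small nucleolar RNA, was listed at 0 in PBS 3, which allows up to 0.114 CPM at that depth by counting error alone, against 17.9 and 30.4 CPM in the others. Crebrf, a regulator of the CREB3 family, had 17.7, 17.6 and 0.797 CPM, and Pawr, a pro-apoptotic regulator, had 52.1, 36.4 and 3.53 CPM. Crebrf was nearly level in PBS 1 and PBS 2, Pawr was higher in PBS 1 than in PBS 2, and both were lowest in PBS 3. Idi1, an isomerase of the cholesterol pathway, had 15.4, 14.3 and 1.40 CPM, and Rad50, a DNA repair protein, had 71.2, 64.2 and 10.3 CPM. The other large differences below were Snord89, Srpr, Lcor and Erbin, from -3.19 to -2.64 on the log2 scale. The largest difference above, among the genes so picked, was Telo2, a stabiliser of PIK-related kinases, with 4.96, 2.25 and 24.2 CPM. The mean used for picking includes PBS 3, so genes low in PBS 1 and PBS 2 could pass through PBS 3 alone. Telo2 and Sdsl did so. C1qtnf6, a secreted C1q-related protein, had 3.35, 19.2 and 47.3 CPM, and here PBS 1 and PBS 2 were themselves far apart. Acy1, an aminoacylase, had 5.31, 11.04 and 34.7 CPM, and Dcxr, a xylulose reductase, had 12.98, 20.6 and 51.5 CPM. Sdsl, a serine dehydratase-like enzyme, had 9.08, 9.001 and 29.3 CPM.

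**Figure D4:**
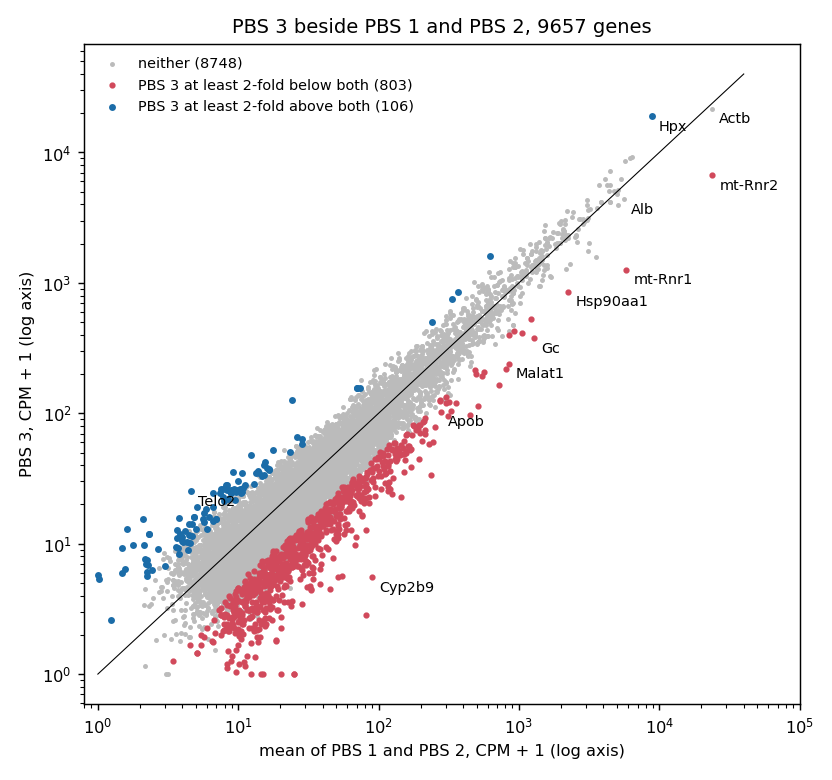
CPM + 1 of PBS 3 against the mean of PBS 1 and PBS 2 for 9657 genes on log axes, with the diagonal of equal levels. The 803 genes below both other libraries form a dense band across levels, with mt-Rnr2, mt-Rnr1, Hsp90aa1 and Gc at its upper end, and the 106 genes above both are sparser, with Hpx at the top.

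Genes below in PBS 3 shared properties that the rule did not use. Among protein coding genes, the 618 below had a median transcript length of 4527 bases against 3326.5 bases for all 8584 and 2804 bases for the 94 above. Their median GC content was 45.2%, against 49.8% for all and 54.05% for those above. A stretch with at least 15 A in 20 bases was present in 58.3% of the genes below, in 32.6% of all genes and in 18.1% of those above. Pseudogenes were 17.7% of the 803 genes below and 7.70% of all genes.

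The same relations were described by bins of genes. The median difference of PBS 3 from the others was -0.50 (log2) for protein coding genes under 42% GC, -0.23 for 46 to 50% and 0.19 for 54% and above. The share of genes below followed the same order, with 16.1% under 42% GC, 8.37% from 46 to 50% and 2.01% at 54% and above. By A content the share below was 0.857% where no 20 bases held 11 A, 7.76% at 13 to 14 A, 13.3% at 15 to 16 A and 12.3% at 17 A or more, so that it did not go on to rise in the last bin. Within a length class the share still differed by A content. A content was not crossed with GC content, so these values do not separate the 2 properties. Among genes of 3000 bases or more the share was 1.504% at up to 12 A and 13.8% at 15 A or more, and among shorter genes it was 1.31% and 9.23%. As a description over 8582 protein coding genes, which share the same 3 libraries, the rank correlation of the PBS 3 difference was 0.41 with GC, -0.38 with A content and -0.28 with length. It was 0.36 with GC against PBS 1 alone and 0.39 against PBS 2 alone, while the difference of PBS 2 from PBS 1 had 0.03. The part of base composition or length in the difference of PBS 3 was not tested.

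**Figure D5:**
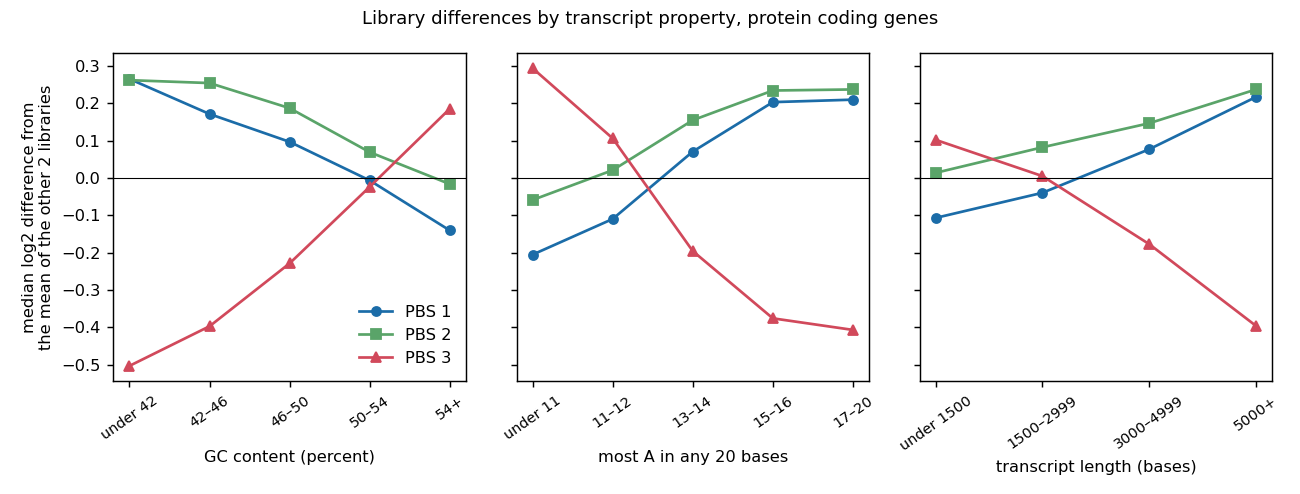
Median log2 difference of each PBS library from the mean of the other libraries for protein coding genes, binned by GC content, by the most A in any 20 bases and by transcript length. The PBS 3 line runs from -0.50 to 0.19 with rising GC and from 0.29 to -0.41 with rising A content. Each library is set against the others, so a slope in PBS 3 alone gives opposite slopes in PBS 1 and PBS 2. The difference of PBS 2 from PBS 1 had a rank correlation of 0.03 with GC.

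The A-rich stretches can be seen in the transcripts themselves, and those with the most A in 20 bases are shown for 5 genes below in PBS 3, followed by 3 genes that were above or not apart. Capitals mark A. The stretches were read 5′ to 3′ along the longest annotated GENCODE transcript on GRCm38, leaving out its last 50 bases.
mt-Rnr2 (chrM:1488-1507, plus strand, 16 A): AAAAAAAcAAcAAAAtcAAA
mt-Rnr1 (chrM:725-744, plus strand, 15 A): AAAAgAAtcAAAcAtAAAAA
Hsp90aa1 (chr12:110694260-110694279, minus strand, 15 A): AAgAgAAAgAAAAAgAAgAA
Malat1 (chr19:5795980-5795999, minus strand, 17 A): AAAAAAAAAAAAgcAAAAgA
Gc (chr5:89441209-89441228, minus strand, 12 A): AtAtggAAAggAAAAAtcAA
Hpx (chr7:105596368-105596387, minus strand, 11 A): gAAAAgAAggAAAAcgggtA
Emc10 (chr7:44491974-44491993, minus strand, 10 A): AAgAAcccAcAggAgcAgAA
Serpina1b (chr12:103732032-103732051, minus strand, 10 A): gAgAAgggAAcccAAggAAA

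The stretches of Hsp90aa1, Gc, Hpx, Emc10 and Serpina1b lie in coding sequence and that of Malat1 in a noncoding RNA. Gc was below in PBS 3 with 12 A, fewer than the other 4 genes shown from that side, so the count of A did not sort single genes. Actb, whose richest stretch held 16 A, was not apart, with a difference of -0.14 (log2). The genes shown are examples. Others read in the same way and below in PBS 3 were mt-Nd5 (13 A), Npm1 (14 A), Eif2s2 and Ybx1 (16 A each), Eif3a (18 A), and Pabpc1 and Serbp1 (20 A each). Slc25a1 and Slc26a10 were above with 12 A each, as many as Gc, and Alb was not apart with 13 A. For Eif2s2, Pabpc1 and Slc26a10 the longest annotated transcript has no coding sequence. Their counts of A may therefore not be those of the mRNAs that were read. Emc10, a subunit of a membrane protein insertase of the endoplasmic reticulum, had 74.3, 70.3 and 155 CPM and was above in PBS 3.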

How the data were processed

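The data were 3 PBS libraries of cultured primary mouse hepatocytes, of 21 libraries prepared with a QuantSeq 3′ kit from total RNA, per the labels' protocols. The submitters' processing notes name cutadapt 1.15 and HISAT2 2.1.0, featureCounts without a version, and mm10 as the mouse build. How these were set, including strandedness and the annotation release, and whether low genes were dropped, is not given in the sources at hand. The deposited values were CPM scaled by the authors, with 9657 genes and a sum of 1000000 in each library. All values were multiples of what 1 read is worth, to within 0.001 reads, and this gave the library totals. Limits from counts of 0 used 3 reads and cover counting error only, since molecules were not tagged.

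Identifiers were matched to GENCODE M21 on GRCm38, the assembly of mm10 (9652 of 9657). Transcript length, GC content and the most A in 20 bases came from the longest annotated transcript, without its last 50 bases for the A count. Means, SDs, shares of CPM and differences on log2(CPM + 1) were computed with Python 3.11.15 and pandas 2.3.3. A single group has no contrast, and PBS 3 was set beside PBS 1 and PBS 2 with its values known, so no test was run. TMM factors (edgeR 4.0.16) and size factors (DESeq2 1.42.0) on the whole reads served as alternative scalings in R 4.3.3. The other alternatives were pseudocounts of 0.5 and 5, other folds, a minimum mean of 10 CPM, totals without mitochondrial genes or pseudogenes, pooled reads, levels per transcript length, and each library left out.

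Genes were named by rule: the 25 with the highest mean, in each list up to 4 of the highest and the lowest, up to 3 apart in PBS 3, the gene pairs, and the 12 largest differences each way at a mean of at least 10 CPM, with predicted genes and pseudogenes only counted. Further textbook genes of a list were named after their values were seen. The group, lists and rules were chosen with earlier results of these data known. Listed genes outside the 9657 were not analysed here, and some genes and pairs of the lists are not reported here.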

Additional observations from a re-analysis of the deposited data

How the results depend on the processing

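No paired analysis was possible because the libraries form a single group with no contrast. Over the alternatives tried, 115 values kept within the spread between libraries, or within 1.5 times for counts, and 44 moved further. The spread was the SD of the same 3 libraries. Leaving out 1 of them cannot move the share of a gene list beyond that SD, so those values among the 115 do not measure stability. Counts and shares cannot change sign, so a reversal could be seen for list medians only. Of 78 list medians of the PBS 3 difference 11 changed sign, in 9 lists whose medians were at most 0.25 (log2) from 0. With TMM factors 5 did so, against PBS 1 alone 1, and against PBS 2 alone 5. Against PBS 1 alone cell cycle genes went from 0.09 to -0.14. Against PBS 2 alone P450 genes went from 0.08 to -0.11, stellate markers from 0.25 to -0.37 and cholangiocyte markers from 0.21 to -0.30. Without mitochondrially encoded genes in the totals the top 10 genes held 8.64%, the top 50 held 21.6% and cytoskeleton and adhesion genes held 6.21% of CPM. Without pseudogenes and predicted genes these shares were 11.4%, 27.1% and 7.04%, and secreted proteins held 13.1%, ribosomal proteins 10.02% and mitochondrial mRNAs 2.25%. With each library left out in turn, the top 10 held 9.59% to 9.72%, the top 50 22.8% to 23.3%, secreted proteins 10.3% to 11.3%, ribosomal proteins 8.07% to 8.57%, cytoskeleton genes 5.79% to 6.02% and mitochondrial mRNAs 1.80% to 2.01%. The mitochondrial ribosomal RNAs held 1.75% without PBS 1 and 2.98% without PBS 3. The number of genes below in PBS 3 was 440 with a pseudocount of 5, 1763 at 1.5-fold and 88 at 4-fold, and 1322 to 1340 when PBS 1 or PBS 2 was left out, since the rule then asks for a gap to a single library. The number above was 173 with TMM factors, 191 with DESeq2 size factors, 43 with a pseudocount of 5, 53 at a mean of at least 10 CPM, 525 at 1.5-fold, 8 at 4-fold, and 336 to 578 when PBS 1 or PBS 2 was left out. Of the top 50 genes 28 were also in the top 50 by CPM per transcript length. The cause of the shifts with pseudocount and scaling was not tested. At 5 CPM the libraries held 71.6 to 131.7 reads, for which counting error alone gives a coefficient of variation of 8.71% to 11.8%, beside a median of 41.6% between libraries for genes from 5 to 10 CPM. The alternative without mitochondrial ribosomal RNA was added after seeing the data.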

Other observations

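Initiation and elongation factors of translation were counted by symbol (Eif and Eef genes), a rule chosen after seeing that some were low in PBS 3. Of 61 such protein coding genes 6 were below both other libraries, or 9.84% beside 8.32% of all genes, and 0 were above, so the share was near that of all genes. Among those below, Eif3a, the largest subunit of initiation factor eIF3, had 566, 521 and 193 CPM in PBS 1, 2 and 3. Eef2, the translocation factor of elongation, had 3571, 3606 and 3745 CPM and was not apart.

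Nfe2l2, which encodes the stress factor Nrf2, had 220.0, 204 and 68.8 CPM and was below in PBS 3. Slc25a1, the mitochondrial citrate carrier, was above in PBS 3 with 235, 242 and 496 CPM. The 21 mitochondrial tRNA genes together held 0.631%, 0.720% and 1.02% of CPM, highest in PBS 3, and this order came from mt-Ts1 and mt-Te. The other 19 tRNA genes summed to 1480.1, 1867 and 1446 CPM, so that PBS 3 lay near PBS 1 and PBS 2 was the highest. Of the 21 genes 13 were lower in PBS 3 than the mean of PBS 1 and PBS 2 on the log2 scale. On the same measure 5727 of all 9657 genes were lower, a share near that of the tRNA genes.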
